A study of Mus musculus with 36 samples.

Results

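Complex I (NADH:ubiquinone oxidoreductase) is the entry point of electrons from NADH into the respiratory chain of mitochondria. The genes described are 35 subunits of this complex that are encoded in the nucleus. They were listed by symbol, not by a rule on measured values, with earlier results of these data already known. All 35 were found among the 51912 gene IDs in the count tables of both muscles. The series holds RNA-seq of whole TA (tibialis anterior, a fast hindlimb muscle) and soleus (a slow one) of male mice aged 3 months. Both muscles were sampled in WT and ∆Ig3-MuSK mice, giving 4 groups of 9 libraries. ∆Ig3-MuSK mice are homozygous for a CRISPR-Cas9 deletion of Musk exons 6 and 7, which encode the BMP-binding Ig3 domain of muscle-specific kinase. WT and ∆Ig3-MuSK mice were both on a C57BL/6 background. The allele is carried in the germline and so is present in every cell type of the muscle, and each library held the RNA of a single muscle.

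Complex I oxidises NADH at the tip of a peripheral arm, passes the electrons along iron-sulfur clusters to ubiquinone and pumps protons through a membrane arm. The peripheral arm is divided into the N module, where NADH binds, and the Q module, where ubiquinone is reduced. The membrane arm has a proximal and a distal part, and its proton-pumping core is encoded by mitochondrial DNA, so that each complex needs transcripts of both genomes. Slow muscle relies more on oxidative metabolism than fast muscle. The 6 nuclear core subunits are Ndufs1, Ndufv1 and Ndufv2 of the N module and Ndufs3, Ndufs7 and Ndufs8 of the Q module. The other 29 are accessory subunits, 7 of the N module, 2 of the Q module, 9 of the proximal and 10 of the distal membrane arm, with Ndufab1, the mitochondrial acyl carrier protein, counted on its own.

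TA libraries had total counts of 49287472 to 78660422, and soleus libraries of 43492062 to 60426556. The lowest count of any of the 35 genes in any library was 1723, so all 35 passed the filter on low counts in both muscles and counting error was small against the spread between libraries. The labelled muscles matched their markers. Summed over 10 slow fiber markers such as Myh7, WT TA libraries held 122 to 213 CPM and WT soleus libraries 22700 to 32300 CPM. The Musk transcript, counted over the whole gene, differed by −0.46 ± 0.12 (log2 fold change ± SE, 9 against 9 libraries) between ∆Ig3-MuSK and WT TA and by −0.44 ± 0.13 in the soleus, with adjusted p = 0.135 and 0.0978 (edgeR quasi-likelihood test). In the TA, WT replicate 5 and ∆Ig3-MuSK replicate 3 lay beyond 2 SD of their group on the first principal component of all genes, which held 34.2% of the variance. Main counts and medians that rest on the TA are therefore given with and without these 2 libraries.

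To compare levels between genes, CPM (counts scaled to library size, using TMM factors over all 36 libraries) were divided by the length of the principal transcript in kb. On this per-length scale, the 4 highest subunits in WT TA were Ndufb9 (521 ± 110, SD, n = 9), Ndufb8 (460 ± 86), Ndufs7 (395 ± 60.7) and Ndufa6 (374 ± 68.2), and each differed from the next in the order by less than the larger of their SDs. The 4 lowest were Ndufab1 (37.4 ± 4.35), Ndufv3 (46 ± 7.54), Ndufb4 (60.9 ± 13.5) and Ndufa12 (62.5 ± 6.51). In WT soleus the highest per-length levels were those of Ndufb9 (411 ± 30.8), Ndufb8 (379 ± 23.9), Ndufs7 (279 ± 21.5) and Ndufb10 (274 ± 10.6), and the lowest those of Ndufab1 (29.8 ± 1.76), Ndufb4 (38.8 ± 4.03), Ndufv3 (46.6 ± 2.99) and Ndufs4 (60.6 ± 5.33). Ndufb9 and Ndufb8 lie in the distal membrane arm and Ndufs7 holds an iron-sulfur cluster of the Q module. The order depended on the length used, and with the union of all annotated exons only 1 of these 4 highest genes in WT TA and 2 of 4 in WT soleus stayed among the 4 highest. Ndufab1 was the lowest of the 35 in both muscles with each of the 3 lengths tried. For Ndufb9, 19.5% of the exon bases are shared with the gene model Gm49356 on the same strand, so its level is uncertain.

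The libraries were not stranded, and overlaps with genes on the other strand cover 39% of the exon bases of Ndufb6 (Smim27), 30% of Ndufa13 (Tssk6), 12.9% of Ndufb11 (Rbm10), 12.3% of Ndufb5 (Mrpl47) and 11.5% of Ndufa2 (Tmco6). Near-identical processed pseudogenes exist for Ndufs3 (Gm12251), Ndufs5 (BC002163), Ndufs6 (Ndufs6b) and Ndufb11 (Gm6444). Values of these genes are uncertain to that extent.

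The first comparison asked whether loss of the Ig3 domain was accompanied by a different level of complex I transcripts in the TA. No subunit passed the test, and all 35 had a fold change below 0 on the log2 scale, against 50.7% of all genes tested below 0 and 49.3% above. Of the 20075 genes tested, 3 were called higher in ∆Ig3-MuSK TA and 0 lower (adjusted p under 0.05 and at least 1.2-fold, edgeR quasi-likelihood test), or 0.0149% higher and 0.0% lower, and 0 of the 35 subunits were called. DESeq2 and limma-voom also called 0 of the 35. The single fit over all 36 libraries, which also gave the interaction and the muscle contrasts below, called 7 lower (Ndufa11, Ndufs8, Ndufc2, Ndufv2, Ndufa3, Ndufb10 and Ndufs4, adjusted p from 0.0367 to 0.0487, edgeR quasi-likelihood test), beside 207 lower and 485 higher of 20841 genes. At an unadjusted p under 0.05, 32 of the 35 subunits were lower, against 12% of all genes tested. The median log2 fold change of the 35 was −0.24, a level 15.1% below WT, and the median of all genes tested was −0.00316. Adjusted p lay between 0.149 and 0.435 over the 35. In simulated data this test called 3.5% of genes changed by 0.25 on the log2 scale. Those genes were drawn at random from all genes tested and varied independently, unlike the 35 subunits, so the share for the subunits is not known. The lack of calls does not show equal levels.

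Estimates for the core subunits ran from −0.32 to −0.08 on the log2 scale. Ndufv2, an iron-sulfur protein of the NADH-oxidising tip, ranged from 216 to 417 CPM in WT TA (median 250; CPM scaled within the TA) and from 196 to 296 CPM in ∆Ig3-MuSK TA (median 211). Its log2 fold change was −0.32 ± 0.11 (adjusted p = 0.162, edgeR quasi-likelihood test). Ndufs8, which carries iron-sulfur clusters of the Q module, ranged from 92.7 to 159 CPM in WT TA (median 106) and from 84.6 to 120 CPM in ∆Ig3-MuSK TA (median 91.6). Here 7 of 9 ∆Ig3-MuSK libraries lay below every WT library, and the log2 fold change was −0.28 ± 0.09 (adjusted p = 0.152). Ndufs7 differed by −0.20 ± 0.08 on the log2 scale, with 234 to 374 CPM in WT TA (median 277) and 231 to 306 in ∆Ig3-MuSK TA (median 245). The other 3 core subunits had the largest p of all 35. Ndufs1, the largest core subunit, had medians of 346 CPM in WT TA (326 to 440) and 340 CPM in ∆Ig3-MuSK TA (296 to 385) and a log2 fold change of −0.08 ± 0.06. Ndufv1, which binds NADH and FMN, differed by −0.10 ± 0.07 and Ndufs3 by −0.11 ± 0.06, and the ranges of the groups overlapped for all 3 genes. For Ndufs3, 5 of 9 ∆Ig3-MuSK libraries lay below every WT library, and the highest ∆Ig3-MuSK library was replicate 3 with 141 CPM.

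Among accessory subunits, the smallest unadjusted p in the TA were those of Ndufb7, Ndufa11, Ndufv3, Ndufa3, Ndufc2 and Ndufa12. Ndufa11, a membrane arm subunit near the contact with complex III in supercomplexes, ranged from 71.9 to 158 CPM in WT TA (median 93.6; CPM scaled within the TA) and from 69.2 to 93.3 in ∆Ig3-MuSK TA (median 74.7), a log2 fold change of −0.35 ± 0.11 (adjusted p = 0.149, edgeR quasi-likelihood test). In this gene 5 of 9 WT libraries lay above every ∆Ig3-MuSK library. Ndufc2 of the proximal membrane arm ranged from 59.4 to 108 CPM in WT TA (median 68.2) and from 50.9 to 77 in ∆Ig3-MuSK TA (median 56.7), a log2 fold change of −0.34 ± 0.12. Ndufb7 of the distal membrane arm ranged from 80.2 to 127 CPM in WT TA (median 91.2) and from 73.6 to 105 in ∆Ig3-MuSK TA (median 76.6), a log2 fold change of −0.26 ± 0.08. In that gene 6 of 9 ∆Ig3-MuSK libraries lay below every WT library. Ndufa3 differed by −0.27 ± 0.09, Ndufv3, a small subunit at the NADH-binding tip, by −0.23 ± 0.08 and Ndufa12 of the N module by −0.20 ± 0.07 on the log2 scale.

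By position in the complex, the median log2 fold change in the TA was −0.16 for the 6 core subunits, −0.23 for the 7 accessory subunits of the N module, −0.22 for the 2 of the Q module, −0.23 for the 9 of the proximal and −0.26 for the 10 of the distal membrane arm. Ndufab1 differed by −0.16 ± 0.07. At an unadjusted p under 0.05, all 29 accessory subunits and 3 of the 6 core subunits were lower. Without WT replicate 5 and ∆Ig3-MuSK replicate 3, all 29 accessory and 5 of the 6 core subunits were lower at that threshold. The medians were then −0.16 for the core, −0.21 for the N module, −0.18 for the Q module, −0.22 for the proximal and −0.23 for the distal membrane arm.

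**Figure D1:**
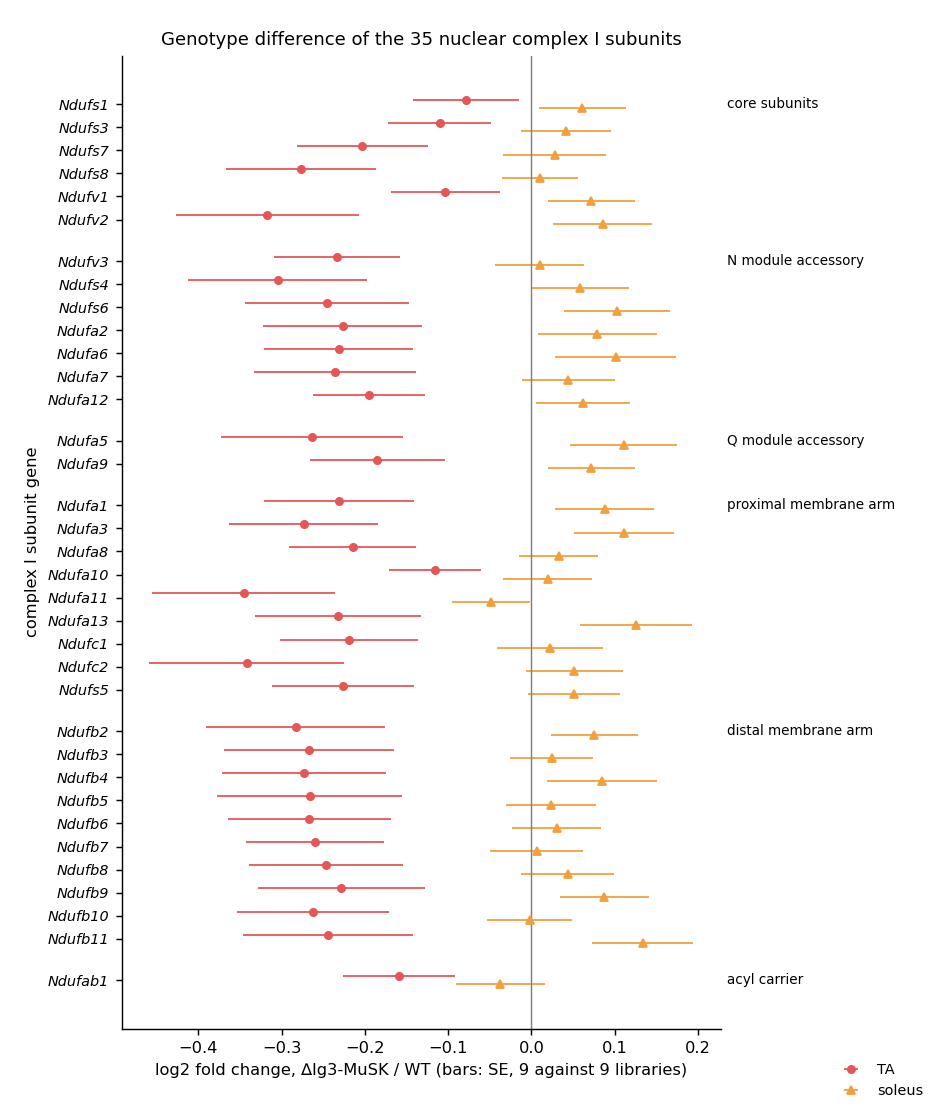
Log2 fold change of ∆Ig3-MuSK against WT (x axis) for each of the 35 subunit genes (y axis, grouped by position in the complex) in the TA (red circles) and soleus (orange triangles), with bars of ± 1 SE over 9 against 9 libraries. All 35 TA values lie below 0, from −0.35 to −0.08, while 32 of the 35 soleus values lie above 0, up to 0.13, and no gene was called in either muscle.

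The subunits were highest in the same few TA libraries. Summed over the 35 genes, WT TA libraries ranged from 4751 to 7636 CPM (median 5263; CPM scaled within the TA) and ∆Ig3-MuSK TA libraries from 4476 to 6006 CPM (median 4679). WT replicate 5 held 7636 CPM and WT replicate 3 held 6460 CPM, against 4751 to 5703 in the other 7 WT libraries. ∆Ig3-MuSK replicate 3 held 6006 CPM and the other 8 held 4476 to 4709, so 8 of 9 ∆Ig3-MuSK libraries lay below every WT library in this sum. WT replicate 5 was the highest of the 18 TA libraries for 33 of 35 subunits, and ∆Ig3-MuSK replicate 3 was the highest of its group for all 35. Without WT replicate 5 and ∆Ig3-MuSK replicate 3, the median log2 fold change was −0.22, 34 of 35 were lower at an unadjusted p under 0.05 and 0 were called. Leaving out each library in turn gave medians from −0.29 (without ∆Ig3-MuSK replicate 3) to −0.17 (without WT replicate 5). With these 2 libraries left out singly, 34 and 22 subunits were lower at an unadjusted p under 0.05.

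**Figure D2:**
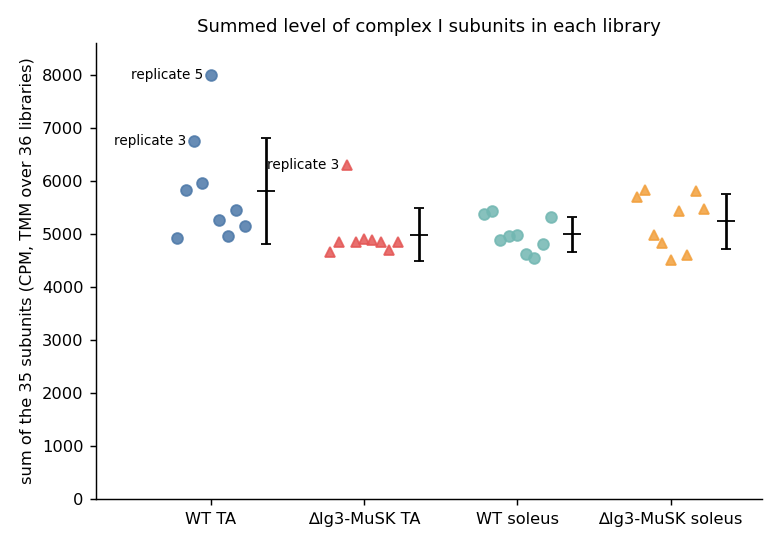
Sum of the 35 subunit genes in each of the 36 libraries (y axis, CPM scaled with TMM factors over all libraries) by group (x axis), where each point is a library and the black bar gives mean ± SD (n = 9). WT TA replicates 3 and 5 and ∆Ig3-MuSK TA replicate 3 stand above the other TA libraries, and the remaining 8 ∆Ig3-MuSK TA libraries lie close together.

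Transcript length moved with this result. Most of the 35 genes have short transcripts, with principal transcripts from 315 to 2590 bp (median 763 bp) and 23 of 35 under 1000 bp. Among all protein-coding genes tested in the TA, the median log2 fold change was −0.17 for genes up to 700 bp, −0.16 for 702 genes of 700 to 1000 bp, −0.08 for 3393 genes of 1000 to 2000 bp, −0.0029 for 5768 genes of 2000 to 4000 bp and 0.11 for 4095 genes over 4000 bp. In the same ranges, the medians of the subunits were −0.25 (14 genes), −0.26 (9 genes), −0.21 (10 genes) and −0.10 (2 genes of 2000 to 4000 bp), with no subunit above 4000 bp. At an unadjusted p under 0.05, 33% of genes up to 700 bp and 36% of genes of 700 to 1000 bp were lower. With per-library offsets that take out a smooth trend on transcript length, the median of the 35 was −0.13, 26 were lower at an unadjusted p under 0.05, all 35 stayed below 0 and 0 were called. RNA quality values of the libraries were not analysed here, and the part of RNA quality in the length trend was not tested. In whole muscle, fewer mitochondria-rich cells or fibers and less RNA per cell cannot be told apart.

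**Figure D3:**
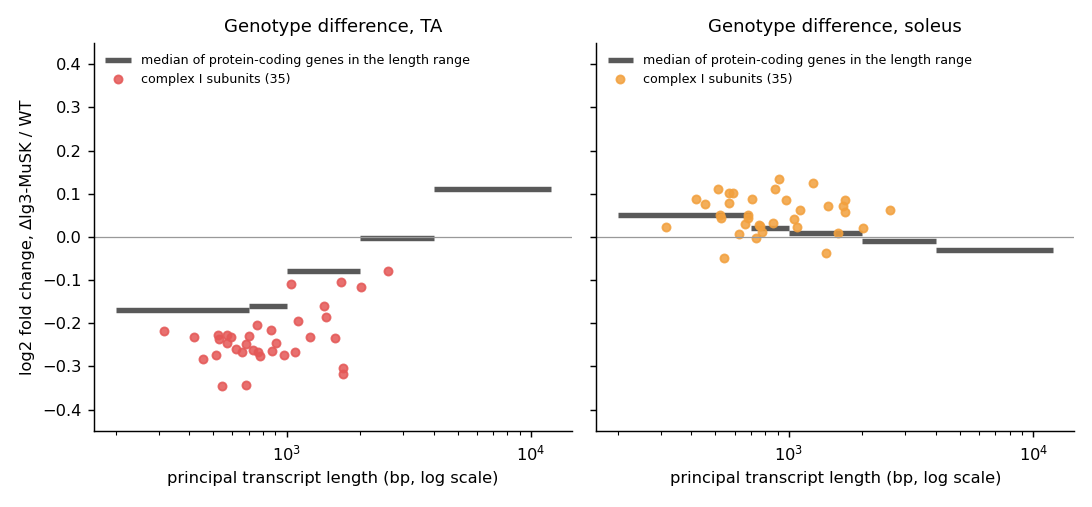
Log2 fold change of ∆Ig3-MuSK against WT (y axis) by length of the principal transcript (x axis, log scale) in the TA and soleus, where points are the 35 subunit genes and grey bars the medians of all protein-coding genes tested in each length range (the first and last ranges are open). In the TA the medians of all genes go from −0.17 for the shortest to 0.11 for the longest transcripts, and most subunits lie below the bar of their range.

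The soleus was compared in the same way. None of the 35 subunits passed the test in ∆Ig3-MuSK soleus, where 0.365% of 19439 genes were called higher and 0.586% lower (edgeR quasi-likelihood test), and DESeq2 and limma-voom called 0 of the 35 as well. Estimates of 32 subunits lay above 0 and those of 3 below, against 49.4% of all genes tested above 0, with a median log2 fold change of 0.05, 3.65% above WT. Leaving out 1 library moved this median between 0.028 (without ∆Ig3-MuSK replicate 2) and 0.077 (without ∆Ig3-MuSK replicate 7). Short transcripts in general leaned the same way. Of all protein-coding genes, 34.9% up to 700 bp and 38.6% of 700 to 1000 bp were below 0. Their medians were 0.05 and 0.02, beside 0.05 and 0.03 for the 14 and 9 subunits in these ranges. At 1000 to 2000 bp the medians were 0.01 for all genes and 0.06 for 10 subunits. At an unadjusted p under 0.05, 1 of 35 was higher (2.86%), against 8.48% of all genes tested, and 0 were lower, against 10.1%. Ndufb11, a distal membrane arm subunit encoded on the X chromosome, ranged from 165 to 214 CPM in WT soleus (median 186; CPM scaled within the soleus) and from 176 to 240 in ∆Ig3-MuSK soleus (median 212), a log2 fold change of 0.13 ± 0.06 (adjusted p = 0.241). The next smallest p were those of Ndufa13 (log2 fold change 0.13 ± 0.07), Ndufa3 (0.11 ± 0.06), Ndufa5 (0.11 ± 0.06), Ndufb9 (0.09 ± 0.05), Ndufs6 (0.10 ± 0.06), Ndufa1 (0.09 ± 0.06) and Ndufb2 (0.08 ± 0.05). The largest were those of Ndufb10 (−0.0023 ± 0.05), Ndufb7 (0.0061 ± 0.06) and Ndufv3 (0.0097 ± 0.05), whose groups had nearly the same center.

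The core subunits in the soleus had log2 fold changes of 0.06 ± 0.05 for Ndufs1, 0.04 ± 0.05 for Ndufs3, 0.03 ± 0.06 for Ndufs7, 0.01 ± 0.05 for Ndufs8, 0.07 ± 0.05 for Ndufv1 and 0.09 ± 0.06 for Ndufv2. Ndufv2 ranged from 224 to 274 CPM in WT soleus (median 249; CPM scaled within the soleus) and from 218 to 299 CPM in ∆Ig3-MuSK soleus (median 269). The sum of the 35 genes ranged from 4810 to 5592 CPM in WT (median 5148) and from 4724 to 5939 in ∆Ig3-MuSK soleus (median 5624), and the ∆Ig3-MuSK range enclosed the WT range. The coefficient of variation between libraries was higher in ∆Ig3-MuSK than in WT soleus for 34 of 35 subunits, with medians of 10% and 6.79%. In the TA it was higher in WT for 31 of 35, with medians of 19.1% in WT and 10.4% in ∆Ig3-MuSK. Without WT TA replicate 5 and ∆Ig3-MuSK TA replicate 3, which widen the TA spread, the medians were 12% and 4.64% and it was higher in WT for 34 of 35. The share of counts on mitochondrially encoded genes was 14.01% ± 1 in WT and 15.36% ± 1.02 in ∆Ig3-MuSK soleus (SD, n = 9 each, exact permutation test, 2-sided, p = 0.0148, and 0.0905 after Benjamini-Hochberg adjustment over 26 library measures). Summed endothelial markers were 348.6 ± 28.2 CPM in WT and 300.2 ± 39.5 in ∆Ig3-MuSK soleus (exact permutation test, p = 0.0102, adjusted 0.0905), with all 6 below WT, and tendon cell markers 501.8 ± 172 and 309.3 ± 137 CPM (exact permutation test, p = 0.0174, adjusted 0.0905), also with all 6 below. Total counts were 46270000 ± 2090000 in WT and 51310000 ± 4870000 in ∆Ig3-MuSK soleus (exact permutation test, p = 0.00893, adjusted 0.0905). Immediate early genes, all 10 below WT, were 242.6 ± 47.9 and 193.2 ± 41.9 CPM (exact permutation test, p = 0.0358, adjusted 0.133). All 6 macrophage markers were below WT and all 7 adipocyte markers above (exact permutation test of each sum, adjusted p = 0.339). All 6 Schwann and myelin and all 5 erythroid markers were above WT (exact permutation test of each sum, adjusted p = 0.47 and 0.592). Of 10 fast fiber markers 8 were above WT, and of 10 slow ones 5 (exact permutation test of each sum, adjusted p = 0.297 and 0.872). The part of these measures in the subunit values was not tested. The mitochondrial share in the TA was 15.26% ± 1.96 and 14.56% ± 1.52 (exact permutation test, p = 0.416).

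The difference between the muscles was tested with an interaction term over the 36 libraries. All 35 subunits had a positive estimate, meaning a genotype difference that was less negative or more positive in soleus than in TA, while 49.7% of all genes had a positive and 50.3% a negative one. Of the 35, 0 passed an adjusted p of 0.05 in edgeR's quasi-likelihood test. That test called 0.0% of 20841 genes in either direction. At an unadjusted p under 0.05, 31 of 35 were positive, against 13.7% of all genes tested, and the median log2 interaction was 0.30. Smallest p were those of Ndufa3 (0.40 ± 0.12, adjusted p = 0.102), Ndufv2 (0.42 ± 0.13, 0.103), Ndufb11 (0.39 ± 0.13, 0.103) and Ndufb4 (0.37 ± 0.13, 0.105). Core subunits other than Ndufv2 had interaction estimates of 0.15 ± 0.09 (Ndufs1), 0.16 ± 0.09 (Ndufs3), 0.24 ± 0.11 (Ndufs7), 0.30 ± 0.11 (Ndufs8) and 0.19 ± 0.09 (Ndufv1). Without WT TA replicate 5 and ∆Ig3-MuSK TA replicate 3, the median was 0.276, 33 were positive at an unadjusted p under 0.05 and 0 were called. DESeq2 called 14 of the 35, beside 776 higher and 323 lower of 41704 genes. Limma-voom with quality weights called 6 of the 35, beside 716 higher and 636 lower of 20841 genes. With offsets on transcript length, 0 were called, 23 were positive at an unadjusted p under 0.05 and the median was 0.169. A difference between the muscles in the genotype effect on these genes thus depended on the test used.

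The muscles were also compared within each genotype. In WT, 21 of 35 (60%) were lower and 2 (5.71%) higher in soleus than in TA (adjusted p under 0.05 and at least 1.2-fold, edgeR quasi-likelihood test over 36 libraries). Of all 20841 genes, 27.3% were lower and 30.2% higher, so only the share of lower subunits was above that of all genes. Transcript length moved with this comparison too. In WT the median log2 fold change of protein-coding genes was −0.22 up to 700 bp, −0.17 at 700 to 1000 bp and 0.15 over 4000 bp. For subunits it was −0.44 up to 700 bp (14 genes) and −0.28 at 700 to 1000 bp (9 genes). The median log2 fold change of the 35 was −0.28, and 27 of 35 were below 0, against 48.8% of all genes. In ∆Ig3-MuSK, 4 were lower (11.4%) and 8 higher (22.9%), both shares below the 27.6% and 28.5% of genes tested. The median was 0.02, with 17 of 35 below 0 (50.1% of all genes) and 18 above (49.9%). Muscle and any separate handling of the 2 muscles cannot be told apart. The contrasts of WT and of ∆Ig3-MuSK share no library. Over the 35 genes, their log2 fold changes had Pearson's r = 0.976 and Spearman's rho = 0.959, as a description across genes that are not independent, and ∆Ig3-MuSK values lay 0.14 to 0.42 above those of WT.

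The same 2 subunits were higher in soleus in both genotypes. Ndufb3, a small subunit of the distal membrane arm, ranged from 63 to 118 CPM in WT TA (median 75.7; CPM scaled over all 36 libraries) and from 115 to 126 in WT soleus (median 124). In ∆Ig3-MuSK it ranged from 59.9 to 88.4 CPM in TA (median 63.8) and from 109 to 141 in soleus (median 131), with no overlap. Its log2 fold change was 0.61 ± 0.09 in WT (adjusted p = 9.27e-08) and 0.91 ± 0.09 in ∆Ig3-MuSK (adjusted p = 9.68e-12, edgeR quasi-likelihood test). In WT only the TA library of replicate 5 reached the soleus range. Ndufa10, a proximal membrane arm subunit with a nucleoside kinase fold, ranged from 150 to 191 CPM in WT TA (median 163) and from 194 to 250 in WT soleus (median 219), with no overlap. It rose by 0.42 ± 0.06 on the log2 scale from TA to soleus in WT (adjusted p = 4.55e-08) and by 0.57 ± 0.06 in ∆Ig3-MuSK (adjusted p = 5.47e-11).

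Conversely, 4 subunits were lower in soleus in both genotypes. Ndufb2 of the distal membrane arm ranged from 136 to 239 CPM in WT TA (median 155; CPM scaled over all 36 libraries) and from 76 to 95.2 in WT soleus (median 85.1), with no overlap. Its log2 fold change was −0.96 ± 0.09 in WT (adjusted p = 9.48e-12, edgeR quasi-likelihood test) and −0.59 ± 0.09 in ∆Ig3-MuSK (adjusted p = 5.44e-07), where TA libraries held 122 to 172 CPM and soleus libraries 78.5 to 103. Ndufa6, an accessory subunit that holds an acyl carrier protein on the peripheral arm, ranged from 181 to 302 CPM in WT TA (median 212) and from 119 to 153 in WT soleus (median 128). Its log2 fold change was −0.75 ± 0.09 in WT and −0.40 ± 0.09 in ∆Ig3-MuSK, and the TA and soleus libraries did not overlap in either genotype. Ndufa2 of the N module fell by 0.73 ± 0.09 and by 0.41 ± 0.09 on the log2 scale, also without overlap, and Ndufb4 fell by 0.65 ± 0.09 and by 0.28 ± 0.09.

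**Figure D4:**
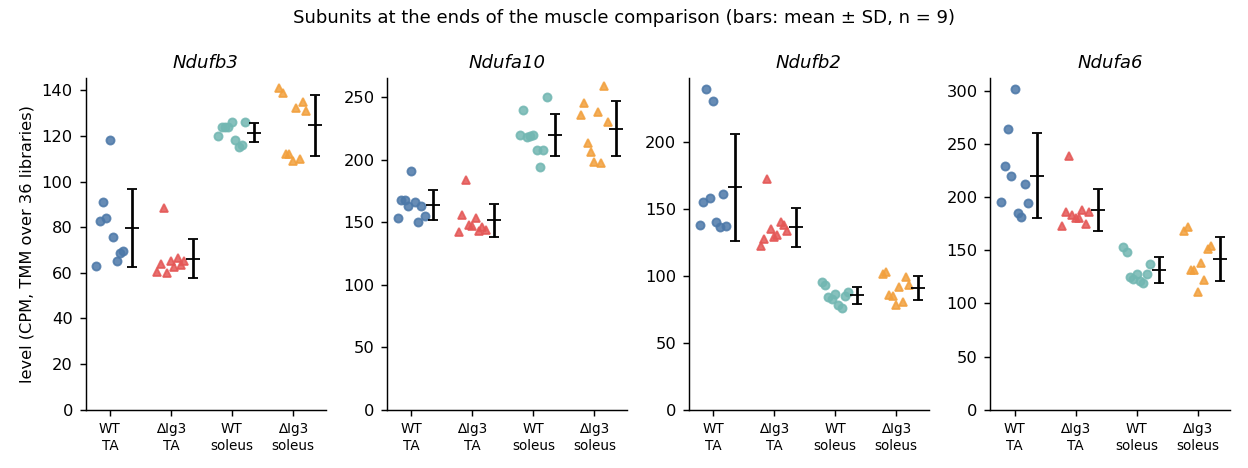
Level of Ndufb3, Ndufa10, Ndufb2 and Ndufa6 in each of the 36 libraries (y axis, CPM scaled over all libraries, from 0) by group (x axis, with ∆Ig3 for ∆Ig3-MuSK), where points are libraries and bars mean ± SD (n = 9). Soleus libraries lie above TA libraries for Ndufb3 and Ndufa10 and below them for Ndufb2 and Ndufa6 in both genotypes, apart from 1 WT TA library that reaches the soleus range for Ndufb3.

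These 4 subunits are parts of the same complex and stood at opposite ends of the muscle comparison, so stretches upstream of their RefSeq start sites are shown (build GRCm38.p6, 5′ to 3′ on the strand of the gene, limited to bases outside annotated exons). Counted from the start, the last base shown lies at −14 for Ndufb3, −103 for Ndufa10, −1 for Ndufb2 and −32 for Ndufa6. Capitals mark matches, on either strand, to the 6 motifs described next.
Ndufb3, chr1:58586324-58586383, plus strand: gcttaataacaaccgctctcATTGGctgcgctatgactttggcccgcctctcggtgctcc
Ndufa10, chr1:92473861-92474008, minus strand: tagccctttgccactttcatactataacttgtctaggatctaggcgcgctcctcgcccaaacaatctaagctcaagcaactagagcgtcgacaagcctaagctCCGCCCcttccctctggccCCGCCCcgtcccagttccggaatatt
Ndufb2, chr6:39592315-39592564, plus strand: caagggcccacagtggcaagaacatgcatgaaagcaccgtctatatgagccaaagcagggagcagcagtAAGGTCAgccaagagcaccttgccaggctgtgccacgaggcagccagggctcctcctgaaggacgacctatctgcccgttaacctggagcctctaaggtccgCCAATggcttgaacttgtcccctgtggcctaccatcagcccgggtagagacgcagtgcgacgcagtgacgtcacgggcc
Ndufa6, chr15:82354323-82354541, minus strand: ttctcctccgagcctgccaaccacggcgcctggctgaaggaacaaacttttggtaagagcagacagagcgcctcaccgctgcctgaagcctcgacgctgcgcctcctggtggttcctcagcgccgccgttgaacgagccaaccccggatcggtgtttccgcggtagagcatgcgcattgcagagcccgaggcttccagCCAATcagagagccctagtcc

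The motifs, searched on both strands in windows from 250 bases before to 50 bases after the start, were those of factors known to bind promoters of respiratory chain genes or promoters in general. Windows were found for 32 of the 35 subunits and for 26994 genes in all. The NRF1 motif (GCGCA and GCGC with any 1 base between them) was in the windows of 7 of 32 subunits (21.9%) and of 5.18% of all genes, and the YY1 motif AAGATGGC in 7 of 32 (21.9%) and 3.18%. The ERR motif AAGGTCA was in 3 of 32 (9.38%, Ndufb2, Ndufb4 and Ndufs5) and in 5.39% of all genes, and the ETS motif CCGGAAG, bound by GABP, in 4 of 32 (12.5%) and 9.92%. GGGCGG, the GC box bound by SP1, was in 15 of 32 (46.9%) and 38.2% of all genes, and CCAAT, bound by NF-Y, in 10 of 32 (31.2%) and 41%. In the stretches printed above, Ndufb3 and Ndufa6 hold a CCAAT match, Ndufa10 a pair of GC boxes, and Ndufb2 an ERR and a CCAAT match. The matches describe these windows and were not tested for binding or against the expression values.

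Other subunits at the ends of the muscle comparison were Ndufa3 (log2 fold change −0.56 ± 0.08 in WT and −0.16 ± 0.08 in ∆Ig3-MuSK), Ndufa7 (−0.53 ± 0.08 and −0.24 ± 0.08), Ndufa9 (0.17 ± 0.07 and 0.44 ± 0.07), Ndufb7 (0.08 ± 0.08 and 0.36 ± 0.08) and Ndufb10 (0.10 ± 0.08 and 0.37 ± 0.08). Ndufa3 and Ndufa7 were called lower in WT soleus and not in ∆Ig3-MuSK soleus, and Ndufa9, Ndufb7 and Ndufb10 were called higher in ∆Ig3-MuSK soleus and not in WT. In ∆Ig3-MuSK, Ndufa7 was called lower under 2 of 10 alternatives and Ndufa3 under 1 of 10. Whether these contrasts differ between the genotypes is the interaction given above, which 0 of the 35 passed. Ndufa9 binds a lipid and a nucleotide near the ubiquinone site, and Ndufb7 and Ndufb10 are disulfide-bearing subunits of the intermembrane space side.

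Among core subunits, Ndufs7 was lower in WT soleus than in WT TA by −0.50 ± 0.08 on the log2 scale (adjusted p = 3.57e-07, edgeR quasi-likelihood test), with 242 to 392 CPM in TA and 190 to 238 in soleus (CPM scaled over all 36 libraries) and no overlap. Ndufv2 was lower by −0.27 ± 0.09 (adjusted p = 0.0122), with overlapping groups. That call was lost under 6 alternatives, among them the fit without WT TA replicate 5 and ∆Ig3-MuSK TA replicate 3 (−0.19), length offsets (−0.23) and the replicate block (−0.25). Ndufs3 at −0.24 ± 0.06 and Ndufv1 at 0.21 ± 0.06 passed the adjusted p and not the 1.2-fold minimum, while Ndufs1 (−0.04 ± 0.06) and Ndufs8 (−0.13 ± 0.08) passed neither. In ∆Ig3-MuSK these genes were again at the ends of the core subunits, Ndufv1 with 0.40 ± 0.06 (called higher in soleus, adjusted p = 6.96e-07) and Ndufs7 with −0.26 ± 0.08, under the fold minimum. Ndufs7 lay near that minimum and was called lower in ∆Ig3-MuSK soleus under 5 of 10 alternatives (−0.30 to −0.22). The remaining core values in ∆Ig3-MuSK were 0.17 ± 0.08 for Ndufs8, 0.15 ± 0.09 for Ndufv2, 0.11 ± 0.06 for Ndufs1 and −0.07 ± 0.06 for Ndufs3.

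**Figure D5:**
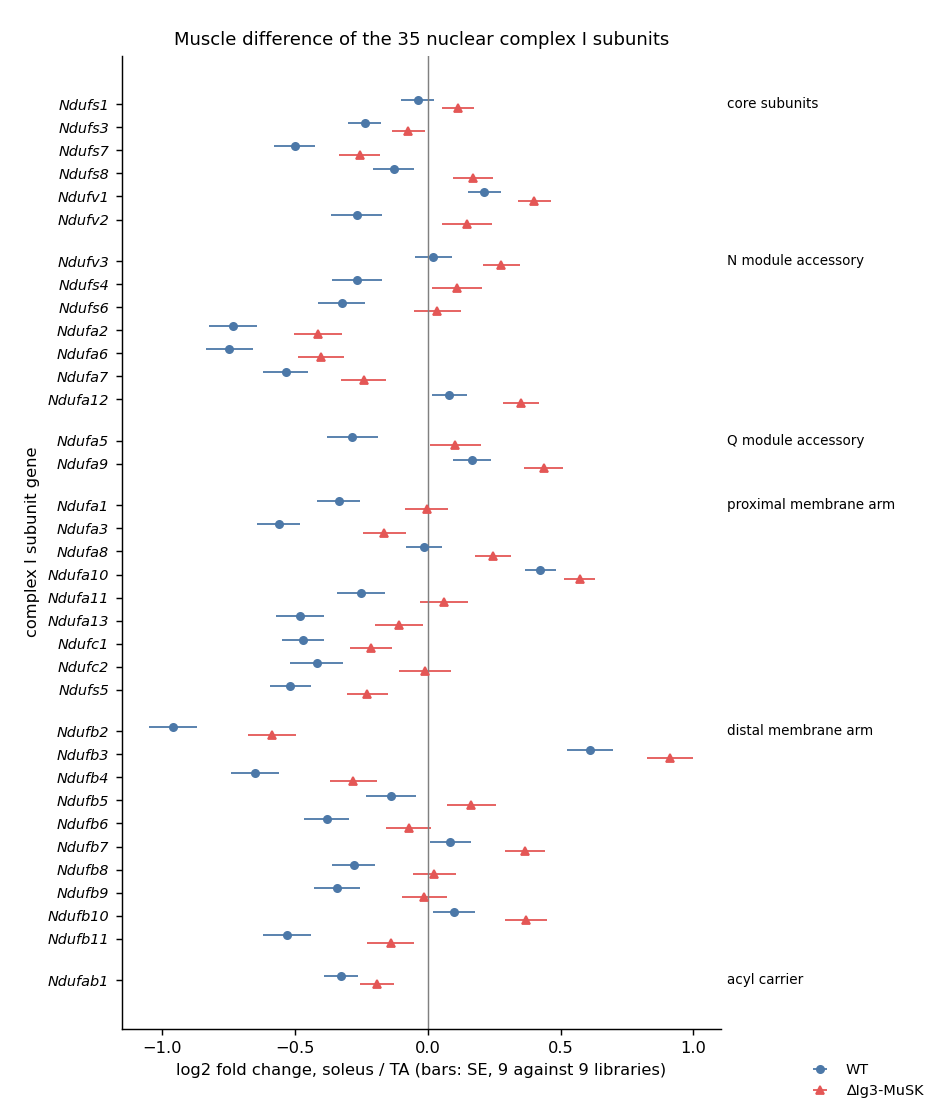
Log2 fold change of soleus against TA (x axis) for each of the 35 subunit genes (y axis, grouped by position in the complex) in WT (blue circles) and ∆Ig3-MuSK (red triangles), with bars of ± 1 SE over 9 against 9 libraries. Values run from −0.96 (Ndufb2) to 0.61 (Ndufb3) in WT and from −0.59 to 0.91 for the same genes in ∆Ig3-MuSK, and each ∆Ig3-MuSK value lies to the right of its WT value.

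At the ends, these differences were larger than those between genotypes. In WT, 9 subunits (Ndufa13, Ndufa2, Ndufa6, Ndufb11, Ndufb2, Ndufb4, Ndufc1, Ndufs5 and Ndufs7) were lower in every soleus library than in every TA library, and Ndufa10 was higher in every soleus library. Of all genes tested, 13.7% and 14.6% showed such separation in these directions. In ∆Ig3-MuSK, Ndufa2, Ndufa6 and Ndufb2 were separated downward (14.6% of all genes) and Ndufa10 and Ndufb3 upward (14.8%). No subunit was separated between genotypes in either muscle, where 0.00996% of genes were in each direction in the TA and 0.0412% (lower) and 0.0206% (higher) in the soleus. Without WT TA replicate 5 and ∆Ig3-MuSK TA replicate 3, 16 of 35 subunits were called lower and 2 higher in WT soleus. In that contrast 5766 of 20849 genes were called lower and 6130 higher. In ∆Ig3-MuSK soleus 4 subunits were called lower and 9 higher, beside 5981 and 5830 of 20849 genes. With offsets on transcript length, 14 subunits were called lower and 2 higher in WT, beside 4502 and 3813 of 14868 genes. In ∆Ig3-MuSK, 8 were called lower and 7 higher with these offsets, beside 4248 and 3837 of 14868 genes. Summed marker levels per library, scaled within each muscle, ranged in WT from 170 to 248 CPM in TA and 293 to 395 in soleus for endothelial cells, from 126 to 219 and 291 to 783 for tendon cells, from 334 to 636 and 680 to 1180 for erythroid cells, and from 172 to 287 and 234 to 569 for adipocytes. All 6 endothelial and all 6 tendon cell markers were called higher in WT soleus, with 3 of 5 erythroid and 6 of 7 adipocyte markers, and their part in the subunit values was not tested.

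Between libraries of a group, the subunits varied together. After each group's mean was taken out, the first principal component of the 35 log2 levels held 87.9% of their variance over the 18 TA libraries and 83.7% over the 18 soleus libraries, and all 35 genes had loadings of the same sign. The median correlation between pairs of subunits was 0.867 in the TA (lowest 0.395) and 0.843 in the soleus (lowest 0.228). Without WT TA replicate 5 and ∆Ig3-MuSK TA replicate 3, the TA values were 74.9% for the component and 0.729 for the median correlation (lowest −0.097). The genes of a pair share libraries, scaling and, for most, a short transcript, so these values are descriptions.

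The other genes needed for the complex and for the rest of the chain were followed by list. In the TA, 18 of 18 complex I assembly factors had means below WT (median log2 fold change −0.16), 11 of them at an unadjusted p under 0.05 (12.0% of all genes) and 0 called. The smallest p were those of Timmdc1 (−0.19 ± 0.05), Ndufaf7 (−0.16 ± 0.05) and Ndufaf1 (−0.17 ± 0.06). The 7 complex I subunits encoded by mitochondrial DNA had a median of −0.10, with 0 at an unadjusted p under 0.05. Nuclear lists of complex III (9 genes, median −0.23), complex IV (13, −0.21) and ATP synthase (15, −0.23) had all means below WT, and complex II (4 genes) had 3 of 4 below, with 0 called. The TCA cycle list had a median of −0.12 and the 12 mitochondrial biogenesis regulators 0.04. Without WT TA replicate 5 and ∆Ig3-MuSK TA replicate 3, 17 of 18 assembly factors were below WT (median −0.14, 8 at an unadjusted p under 0.05), and the medians were −0.04 for the mitochondrially encoded subunits, −0.16 for complex II, −0.19 for complex III, complex IV and ATP synthase, −0.10 for the TCA cycle and 0.04 for the regulators, with 0 called. In the soleus, all 7 mitochondrially encoded subunits were higher at an unadjusted p under 0.05 (8.48% of all genes; median 0.23, 0 called), beside medians of 0.03 for assembly factors, 0.06 for complex II, 0.04 for complex III, 0.06 for complex IV, 0.05 for ATP synthase, 0.07 for the TCA cycle and −0.01 for the regulators.

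In the WT muscle comparison, 9 of 18 assembly factors were called lower in soleus and 0 higher, against 27.3% of all genes lower and 30.2% higher, the shares beside which the counts of each list below are to be read. Ndufaf6 (−1.05 ± 0.07) and Tmem126b (−0.83 ± 0.06), both needed to build the complex, had larger differences than most subunits. Of the mitochondrially encoded subunits 2 were called lower and 2 higher, and of the regulators 6 of 12 were called higher, led by Esrrb (3.09 ± 0.11) and Esrrg (2.77 ± 0.11), orphan nuclear receptors that act on oxidative genes. Complex III had 4 called lower and 0 higher, complex IV 5 and 0, ATP synthase 5 and 1, the TCA cycle 5 and 3, and complex II 0 and 1. In the TA, markers of other cell types did not pass an adjusted test between genotypes. Of 10 slow fiber markers 8 were above WT, and of 10 fast ones 5 (exact permutation test of each sum, adjusted p = 0.755 and 0.551). The brown adipocyte list was 683.8 ± 127 CPM in WT TA and 582.6 ± 51 in ∆Ig3-MuSK TA (SD, n = 9, exact permutation test, 2-sided, p = 0.0292, adjusted 0.127), nearly all of it Cox7a1 and Cox8b, which muscle also expresses, while Ucp1 was at or below 0.00734 CPM on average in every group.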

How the data were processed

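Whole muscles gave 36 non-stranded RNA-seq libraries, 9 in each of 4 groups taken from the sample labels. The authors trimmed reads with Trimmomatic, aligned them to mm10 (GRCm38) with GSNAP, counted them per gene with HTSeq and deposited whole-number counts with no normalization, in 1 table per muscle. The annotation release and counting mode are not given in the sources used here. The number of columns of other samples was 0.

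Symbols were matched for 51633 of 51912 gene IDs. Within each muscle, genes were filtered (filterByExpr, minimum count 10, minimum total 15), scaled with TMM factors and tested with glmQLFit and glmQLFTest in edgeR 4.0.16 (R 4.3.3). Calls needed a Benjamini-Hochberg adjusted p under 0.05 over all genes tested and at least a 1.2-fold change (no fold minimum for the interaction). The interaction and the muscle contrasts came from 1 fit over 36 libraries, in which TA and soleus libraries with the same label number were not paired. The SE is the log2 fold change divided by the square root of F. CPM are counts scaled with TMM factors, by muscle or over all 36 libraries as stated. Depths of 43492062 to 78660422 counts left counting error small, so precision is set by the spread among 9 libraries a group. Library measures were compared by exact permutation over 48620 assignments. The principal transcript in GENCODE M21 (best APPRIS rank, then the shortest) gave transcript length, promoters came from RefSeq (GRCm38.p6), and copies were found with BLAST 2.17.0. The principal transcript was chosen as length after the data were seen.

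The 35 members and all gene lists were chosen with earlier results of these data known. Named with values are the 6 core subunits, the 8 smallest and 3 largest p in each genotype comparison, the 6 highest and 6 lowest in the WT muscle comparison, the 4 highest and lowest levels, the 4 smallest interaction p, uncertain members, at most 3 genes per other list, and Musk. Genes separated without overlap were named with their values in view. The alternatives tried were DESeq2 1.42.0, limma-voom (limma 3.58.1) with quality weights, RLE and upper-quartile factors, no filter, no fold minimum, a single fit, replicate blocks, libraries left out and, added after the data were seen, offsets on transcript length and GC content. The edgeR genotype and interaction fits and the length offsets were tested on simulated data, with the changed genes drawn at random from all genes tested. The TA fit called 3.5% of genes changed by 0.25 on the log2 scale, 67.5% at 0.5 and 93.5% at 1. The soleus fit called 8%, 65% and 91%. For the interaction only a change of 1 was simulated, of which 76.5% were called. At 0.25, 12.5% of the TA calls were false.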

Additional observations from a re-analysis of the deposited data

Results flagged for a closer look

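A library was looked at again where its gap to the nearest other library of its group, divided by the range of the group, was above Dixon's critical value for 9 libraries, which chance passes in about 1 of 20 groups. Of 148 such tests on the 35 subunits, the mitochondrial share and the total count, 38 passed, 29 of them in ∆Ig3-MuSK TA, 8 in WT TA and 1 in WT soleus. The tests are not independent, since the subunits vary together.

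In ∆Ig3-MuSK TA the library that stood apart was replicate 3 in all 29 cases, always as the highest (CPM scaled within the TA). Among core subunits, it held 141 CPM for Ndufs3, 306 CPM for Ndufs7, 120 CPM for Ndufs8, 373 CPM for Ndufv1 and 296 CPM for Ndufv2. Among accessory subunits of the N module, it held 68.3 CPM for Ndufv3, 125 CPM for Ndufs4, 106 CPM for Ndufs6, 154 CPM for Ndufa2, 229 CPM for Ndufa6 and 96.5 CPM for Ndufa7. Among the Q module, it held 173 CPM for Ndufa5. Among the proximal membrane arm, it held 81.4 CPM for Ndufa1, 153 CPM for Ndufa3, 166 CPM for Ndufa8, 176 CPM for Ndufa10, 277 CPM for Ndufa13, 97.8 CPM for Ndufc1, 77 CPM for Ndufc2 and 64.3 CPM for Ndufs5. Among the distal membrane arm, it held 165 CPM for Ndufb2, 84.4 CPM for Ndufb3, 232 CPM for Ndufb5, 106 CPM for Ndufb6, 105 CPM for Ndufb7, 323 CPM for Ndufb8, 395 CPM for Ndufb9, 194 CPM for Ndufb10 and 275 CPM for Ndufb11.

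In WT TA it was replicate 5 in all 8 cases, again as the highest, with 159 CPM for Ndufs8, 95.5 CPM for Ndufv3, 238 CPM for Ndufa5, 261 CPM for Ndufa9, 182 CPM for Ndufa10, 158 CPM for Ndufa11, 113 CPM for Ndufb3 and 324 CPM for Ndufb5. In WT soleus it was replicate 1 with 77.5 CPM for Ndufa7 (CPM scaled within the soleus), and in ∆Ig3-MuSK soleus 0 of the tests passed. The mitochondrial share of counts was the highest of its group in both TA libraries, 18.2% in WT replicate 5 and 16.8% in ∆Ig3-MuSK replicate 3, and the cause was not tested.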

How the results depend on the processing

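In the TA, all 35 subunits stayed below WT under every alternative run, and 0 were called except in the single fit over 36 libraries, which called 7 lower. Leaving out 1 library gave a median log2 fold change from −0.29 to −0.17 and 22 to 34 subunits lower at an unadjusted p under 0.05. In the soleus, subunits higher at an unadjusted p under 0.05 numbered 6 with the replicate block, 2 with offsets for length and GC content, 0 in the single fit and 0 to 6 with 1 library left out. Soleus values near 0 changed sign for subunits named above and for others, such as Ndufb3 (−0.02 to 0.04 over the alternatives) and Ndufc1 (−0.02 to 0.03). Among those named by rule, with limma-voom these were Ndufv3 (−0.01), Ndufb7 (−0.03) and Ndufs8 (−0.01). With length offsets Ndufb7 was −0.02 and Ndufs8 −0.0044, and with the replicate block Ndufb7 was −0.0015. Ndufb10 was 0.01 with upper-quartile factors and in the single fit. With 1 library left out, the ranges were −0.03 to 0.02 for Ndufb10, −0.02 to 0.04 for Ndufb7, −0.01 to 0.03 for Ndufv3, −0.01 to 0.03 for Ndufs8 and −0.0026 to 0.05 for Ndufs7.

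Interaction calls were 14 in DESeq2, 6 in limma-voom and 0 elsewhere, and the cause was not tested. Subunits higher in WT soleus at an unadjusted p under 0.05 numbered 7 with limma-voom and with both kinds of offsets, and without a fold minimum 4 were called higher. In ∆Ig3-MuSK, 8 were called lower in soleus with length offsets, 9 with length and GC offsets (14 at an unadjusted p under 0.05) and 9 without a fold minimum. Over all genes, 4248 of 14868 were called lower with length offsets and 4256 of 14868 with length and GC offsets. With union exon length, 1 of the 4 highest and 2 of the 4 lowest subunits in WT TA and 2 of the 4 highest in WT soleus were kept. With the longest transcript, 2 and 2 were kept in WT TA and 2 of the 4 lowest in WT soleus. Other counts over the 35 stayed within 1.5 times. The call of Ndufv2 in WT soleus was also lost with limma-voom (−0.16), with length and GC offsets (−0.17) and with the block by label number (−0.25). Subunits below WT in the soleus numbered 3, and 2 to 8 under the alternatives.

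The replicate number was shared between genotypes by different animals, and same-numbered libraries did not deviate together (correlations −0.135 to 0.451 in the TA and −0.33 to 0.359 in the soleus, 1 of 9 best with its own number in each), so they share only a number. The replicate block lost the call of Ndufv2 in the WT muscle comparison (−0.25) and changed no other call of a subunit named in the text. The label number shared by TA and soleus libraries gave 16 pairs with correlations of 0.0256 to 0.284, 7 of them over 0.1, and the block by label number changed no count of calls by over 1.5 times. Depth did not limit these genes.

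Over all genes, the TA calls were 0 lower and 3 higher, against 68 and 169 in DESeq2, 30 and 120 in limma-voom, and 207 and 485 in the single fit. The soleus calls were 114 and 71, against 324 and 165 in DESeq2, 390 and 263 in limma-voom, 256 and 91 with the replicate block, and 8 to 369 lower and 14 to 233 higher with 1 library left out. Interaction calls were 0 and 0, against 323 and 776 in DESeq2 and 636 and 716 in limma-voom. No soleus library lay beyond 2 SD on the first principal component, so no such fit was made there.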
